A study of Homo sapiens with 10 samples.

Results

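The genes described here encode chromatin remodelers, 41 genes out of the 59386 genes listed in each count file. They were chosen by family and by no cut on a measured value, though earlier results of these data were known. The list holds 27 subunits of the SWI/SNF (BAF) complexes, 9 members of the CHD family and 3 ATPases of the *INO80* type (*INO80*, *SRCAP* and *EP400*). *ATRX* and *HELLS* complete it. Of the 41 genes, 40 had enough counts to be tested. *DPF3* did not, with 0 to 4 counts in a library.

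RNA was sequenced from VCaP cells, an epithelial prostate cancer cell line that the labels give as the only line of the experiment. *SMARCA4* was lowered with siRNA A or siRNA B, and *SMARCA1* with siRNA A or siRNA C, each transfected at 30 pmol with a lipid reagent (Lipofectamine RNAiMAX) and harvested after 72 h. The control group is labelled control with genotype WT, and the siRNA and dose it received are not stated. Each of the 5 groups had 2 replicate libraries, 10 libraries in all. Nothing in the labels says that replicates came from separate cultures, so p-values measure only the spread between these libraries. In such bulk RNA, fewer cells of a type and less RNA per cell cannot be told apart.

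Chromatin remodelers use ATP to slide, evict or exchange nucleosomes. A SWI/SNF complex holds either *SMARCA4* (BRG1) or *SMARCA2* (BRM) as its motor, on a core of SMARCC and SMARCD subunits. In canonical BAF and PBAF, but not in every form, the core also holds *SMARCB1* and *SMARCE1*. Canonical BAF adds *ARID1A* or *ARID1B* and a DPF protein, PBAF adds *PBRM1*, *ARID2*, *BRD7* and *PHF10*, and non-canonical BAF (ncBAF) adds *BRD9*. *SMARCA1* (SNF2L) is a motor of ISWI complexes, a separate remodeler family that spaces nucleosomes, and it is not among the 41 genes. In prostate cancer cells SWI/SNF is known as a partner of the androgen receptor at enhancers.

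Total counts per library lay between 23898545 and 34667965. Genes of the prostate luminal lineage were present in every library, and the leukocyte genes *PTPRC* and *CD3E* were at 0 to 0.0309 CPM. The stromal and endothelial genes *PDGFRB* and *PECAM1* reached at most 0.561 CPM, *COL1A2* 3.42 CPM and *COL1A1* 4.14 to 18.5 CPM. A group of 30 interferon response genes took 0.0367% and 0.0381% of the counts in the controls, 1.7% to 4.55% in *SMARCA4* knockdown and 2.46% to 4.65% in *SMARCA1* knockdown, and 30 of the 30 were called higher in each knockdown. That shift accompanies every comparison with control below, its part in the changes of the remodeler genes was not tested, and knockdown and the transfection of a targeting siRNA cannot be told apart. Replicate pairs differed unequally, with a chi-square of their counts per gene of 60.6 for *SMARCA1* siRNA A, 42.9 for *SMARCA4* siRNA A and 3.8 to 22.7 for the other 3. The *SMARCA4* siRNA A replicates had 3.35% and 1.7% of counts in the interferon response genes. In replicate 1 of *SMARCA1* siRNA A, the median log2 CPM difference from replicate 2 was 0.26 for 1581 genes with exons under 2 kb in sum and -0.35 for 1988 genes over 10 kb. No other replicate pair differed by more than 0.06 in either class. The first replicate of *SMARCA1* siRNA A was the lowest of the 4 *SMARCA1* knockdown libraries for 20 of the 40 genes tested.

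The siRNA sequences are shown because their closeness to other remodeler genes bears on how the paralogs are read. The study lists 2 sequences for each target by number and does not state which lettered siRNA each one is. They are given 5′ to 3′ as listed.
SMARCA4-siRNA-1#: caaucauguacuuccaacggaucuugg
SMARCA4-siRNA-2#: ugggaagaauucuaucaagaagcucaa
SMARCA1-siRNA-1#: ggaagacaauaggcuauaagguucc
SMARCA1-siRNA-2#: ggauuguagaaagagcugagauaaa

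On GRCh38 with GENCODE annotation, the first *SMARCA4* sequence was antisense to coding sequence across the junction of exons 18 and 19 of 35 in the canonical transcript (chr19:11019697-11019701 and chr19:11021725-11021746, plus strand), a site present in 30 of 36 coding transcripts. The other *SMARCA4* sequence was antisense to coding sequence in exon 24 (chr19:11027813-11027839), present in 31 of 36. The *SMARCA1* sequences were sense copies of coding sequence across exons 19 and 20 and in exon 15 of 25 on chromosome X, minus strand. *SMARCA4* was the only one of the 41 genes whose transcripts held a full match to a *SMARCA4* sequence, and 0 of the 41 held one to a *SMARCA1* sequence.

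The closest stretch of *SMARCA2*, without gaps, matched each *SMARCA4* site at 22 of 27 bases. Each site is printed with the *SMARCA2* stretch under it, and capitals mark the bases that differ.
SMARCA4 site 1: cCaagatCcgTtggaaGtacatgatTg
SMARCA2 at site 1: cAaagatTcgGtggaaAtacatgatAg
SMARCA4 site 2: ttgagctTcttgatAgAattctTccCa
SMARCA2 at site 2: ttgagctGcttgatCgTattctGccAa

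Counted from 1 at the 5′ end of each site in the mRNA, the differences were C2A, C8T, T11G, G17A and T26A at site 1 and T8G, A15C, A17T, T23G and C26A at site 2, with the *SMARCA4* base first. The *SMARCA2* stretches lie in coding exons 17 and 18 (chr9:2084192-2086850, intron included) and 23 (chr9:2104032-2104058).

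With *SMARCA4* lowered, 24 of the 40 genes (60.0%) passed an adjusted p of 0.05 and are named called here, 14 of them higher and 10 lower, where 45.1% of all 16899 genes tested were called, 22.8% higher and 22.3% lower. With *SMARCA1* lowered, 21 were called (52.5%), 12 higher and 9 lower, against 46.8% of all genes, 23.8% higher and 23% lower. The median log2 fold change of the 40 genes was 0.13 and 0.14, beside 0.002 and -0.004 over all genes. In both knockdowns the share called was above that of all genes, and so was the share called higher, both by less with *SMARCA1* lowered. The latter was 35.0% against 22.8% with *SMARCA4* lowered, and 12 of 40 genes against 23.8% with *SMARCA1* lowered. Called lower were 10 of 40 against 22.3% and 9 of 40 against 23%. The counts with *SMARCA4* lowered include *SMARCA4* itself, the target of the siRNAs. No test of the group was run, and the 40 genes were not matched to all genes by level. The comparisons share the same 2 control libraries. The 10 genes called higher in both and 7 called lower in both are therefore counts side by side and no independent support of each other. How many of all genes were called the same way in both was not counted, so the overlap cannot be read as particular to the 40 genes.

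**Figure D1:**
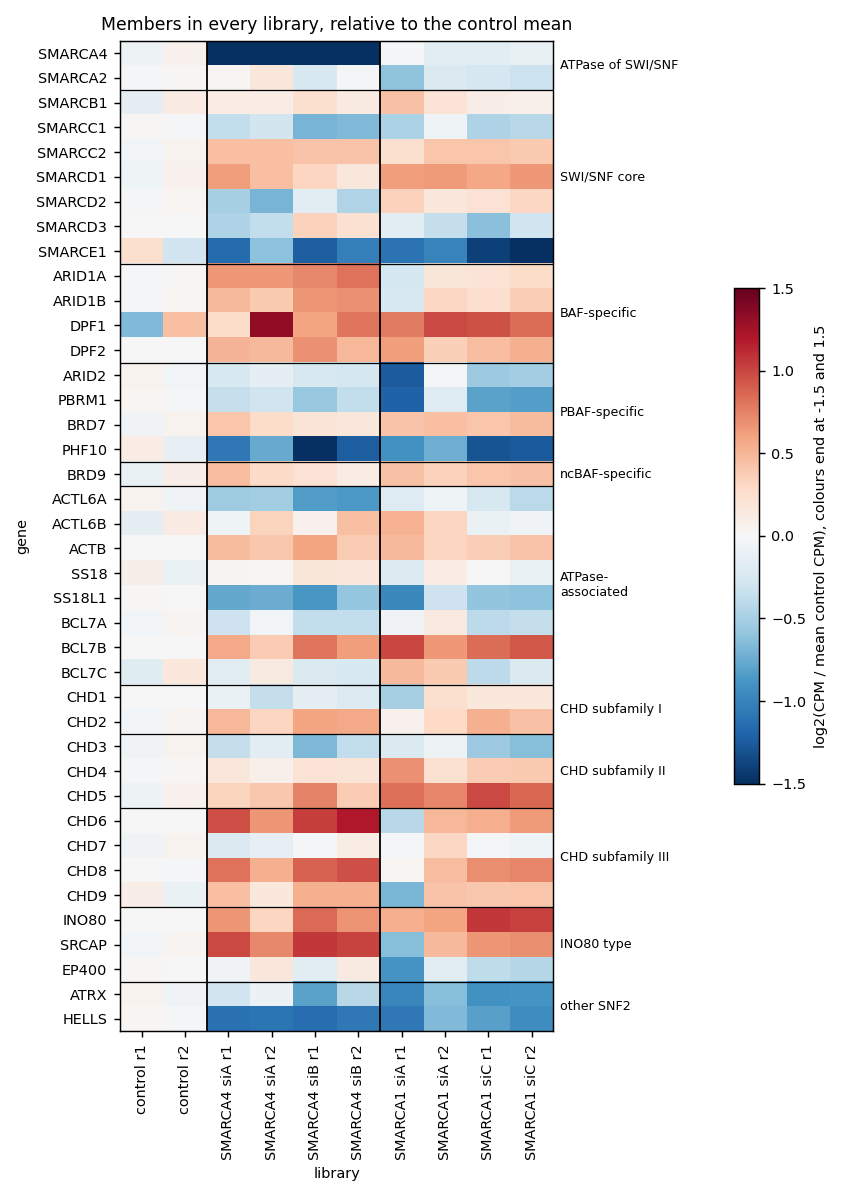
Rows are the 40 tested genes by family and columns the 10 libraries, with the colour giving the log2 of TMM-scaled CPM over the control mean. *SMARCA4* lies beyond the colour scale in its 4 knockdown libraries, and *PHF10*, *SMARCE1* and *HELLS* are below the control mean in all 8 knockdown libraries.

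The calls rested on the 2 controls more than on any other library. A fit without either control holds 1 control library. The shares of all genes called in such fits are not set beside the counts here. The losses therefore cannot be read as particular to the remodeler genes. Without control replicate 1, 14 genes were called with *SMARCA4* lowered and 10 with *SMARCA1* lowered, and without control replicate 2 these counts were 18 and 13. Without replicate 1 or 2 of *SMARCA4* siRNA A, 22 and 26 genes were called with *SMARCA4* lowered. Under every alternative that was run, 14 calls held with *SMARCA4* lowered (*SMARCA4*, *SMARCC2*, *ARID1A*, *DPF2*, *PHF10*, *ACTL6A*, *ACTB*, *SS18L1*, *BCL7B*, *CHD2*, *CHD6*, *CHD8*, *INO80* and *HELLS*) and 10 with *SMARCA1* lowered (*SMARCD1*, *SMARCE1*, *DPF2*, *BRD7*, *PHF10*, *BCL7B*, *CHD5*, *INO80*, *ATRX* and *HELLS*).

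Of the SWI/SNF motors, *SMARCA4* fell in its own knockdown, and *SMARCA2* passed the test for a rise in neither knockdown. *SMARCA4* stood at 242 and 267 CPM in the control libraries, at 25.2 and 23.2 with *SMARCA4* siRNA A, at 18.6 and 13.3 with *SMARCA4* siRNA B, at 249 and 229 with *SMARCA1* siRNA A, and at 228 and 237 with *SMARCA1* siRNA C. The *SMARCA4* knockdown libraries lay far below all others, and the *SMARCA1* knockdown libraries overlapped the controls. *SMARCA4* fell by 3.70 on the log2 scale in its own knockdown (SE 0.13, adjusted p = 3.9e-07, edgeR's quasi-likelihood test as for every adjusted p given here). In *SMARCA1* knockdown the log2 fold change of *SMARCA4* was -0.11 (95% interval -0.39 to 0.17, adjusted p = 0.5).

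*SMARCA2*, the alternative motor, stood at 129 and 133 CPM in the controls, at 134, 147, 112 and 129 in *SMARCA4* knockdown (siRNA A replicates 1 and 2, then siRNA B replicates 1 and 2, the order kept below) and at 86.2, 113, 109.7 and 105 in *SMARCA1* knockdown (siRNA A, then siRNA C). The *SMARCA4* knockdown values lay on both sides of the controls, and those of *SMARCA1* knockdown were all lower than the controls. With *SMARCA4* lowered, the log2 fold change of *SMARCA2* was -0.01 (95% interval -0.28 to 0.26, adjusted p = 0.95), 0.10 with siRNA A alone and -0.12 with siRNA B alone. With *SMARCA1* lowered, *SMARCA2* fell by 0.34 (SE 0.12, adjusted p = 0.038). That call did not hold without either control (-0.34, adjusted p = 0.16, without control replicate 1 and -0.30, adjusted p = 0.2, without control replicate 2) or without either library of *SMARCA1* siRNA C (-0.35, adjusted p = 0.081, and -0.33, adjusted p = 0.1), nor with the *SMARCA1* knockdown and control libraries alone in the fit (-0.34, adjusted p = 0.056).

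**Figure D2:**
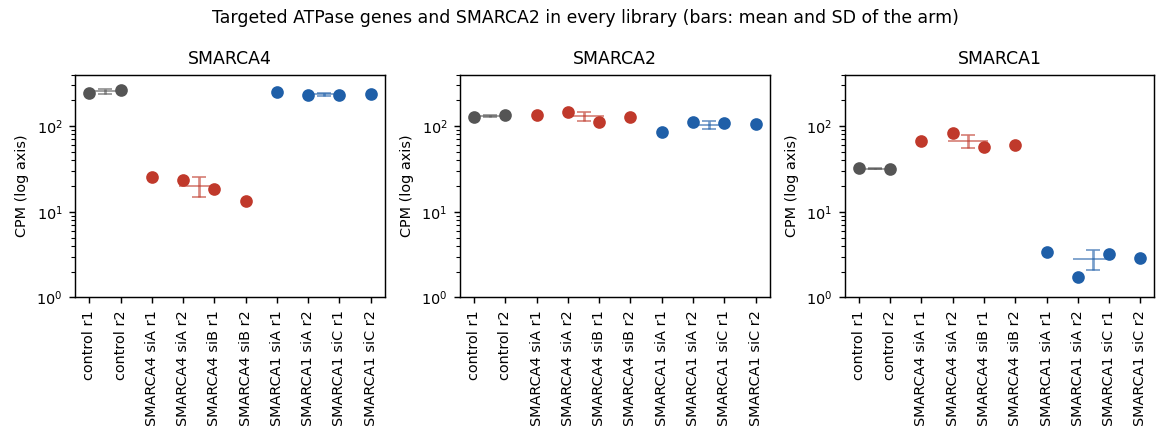
Each point is the CPM of 1 library on a log axis, with the mean and SD of each arm, for *SMARCA4*, *SMARCA2* and *SMARCA1*. *SMARCA4* lies between 13.3 and 25.2 in its knockdown against 242 and 267 in the controls, while *SMARCA2* stays between 86.2 and 147 in all 10 libraries.

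Levels per kb of exon, with the length taken as the union over all isoforms, allow the motors to be set beside each other. *SMARCA4* made up 69.2% and 70.7% of the summed CPM per kb of *SMARCA4* and *SMARCA2* in the controls, 18.5%, 15.9%, 16.6% and 11.0% in *SMARCA4* knockdown, and 77.7%, 70.9%, 71.4% and 73.0% in *SMARCA1* knockdown. The sum itself was 22.6 and 24.4 CPM per kb in the controls, 8.81, 9.42, 7.23 and 7.78 in *SMARCA4* knockdown and 20.8, 20.9, 20.6 and 21.0 in *SMARCA1* knockdown. *SMARCA2* was thus the larger share of the remaining motor mRNA after *SMARCA4* knockdown without a higher level of its own. *SMARCA1*, which is no member but the other target, stood at 32.3 and 31.4 CPM in the controls, 67.4, 83.7, 57.4 and 60.6 in *SMARCA4* knockdown and 3.4, 1.75, 3.2 and 2.85 in its own knockdown. *SMARCA1* thus rose by 1.07 on the log2 scale with *SMARCA4* lowered (SE 0.18, adjusted p = 0.001), in 4 of 4 libraries, and fell by 3.51 with its own siRNAs (SE 0.18, adjusted p = 2.1e-06).

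In the SWI/SNF core, 5 of 7 genes were called with *SMARCA4* lowered (71.4%, 2 higher, 3 lower), where 45.1% of all genes were called. The share was 57.1% (4 of 7, 2 higher, 2 lower) with *SMARCA1* lowered, beside 46.8% of all genes. *SMARCC1* and *SMARCC2* moved in opposite directions in both, and *SMARCD1* and *SMARCD2* in *SMARCA4* knockdown. The SMARCC genes encode the paired scaffold subunits on which the complex is built. *SMARCC1* stood at 318 and 308 CPM in the controls, 242, 259, 193 and 198 in *SMARCA4* knockdown and 226, 300.0, 228 and 234 in *SMARCA1* knockdown. *SMARCC2* stood at 152 and 163 CPM, then 214, 215, 212 and 212, then 185, 209, 210.2 and 206. Neither gene's knockdown values overlapped its controls, with *SMARCC1* lower and *SMARCC2* higher. *SMARCC1* fell by 0.50 with *SMARCA4* lowered (SE 0.11, adjusted p = 0.0052) and by 0.34 with *SMARCA1* lowered (SE 0.11, adjusted p = 0.03), while *SMARCC2* rose by 0.44 (SE 0.09, adjusted p = 0.0032) and 0.36 (SE 0.09, adjusted p = 0.0087). The share of *SMARCC1* in the summed CPM per kb of the pair was 71.6% and 69.5% in the controls, 52.3% to 59.2% in *SMARCA4* knockdown and 56.6% to 63.4% in *SMARCA1* knockdown. Without control replicate 1, *SMARCC1* did not pass in either knockdown (-0.44, adjusted p = 0.069, and -0.30, adjusted p = 0.19), nor did *SMARCC2* in *SMARCA1* knockdown (0.34, adjusted p = 0.079). *SMARCC1* in *SMARCA1* knockdown also did not pass without control replicate 2 (-0.35, adjusted p = 0.12) or without replicate 1 or 2 of *SMARCA1* siRNA C (-0.33, adjusted p = 0.084, and -0.36, adjusted p = 0.071), or with the 2 arms alone in the fit (-0.34, adjusted p = 0.053).

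The SMARCD genes encode interchangeable BAF60 subunits that bind transcription factors, including nuclear receptors. *SMARCD2* stood at 137 and 142 CPM in the controls, 98.8, 85.8, 125 and 102 in *SMARCA4* knockdown and 177, 156, 162 and 173 in *SMARCA1* knockdown. It was below the controls in all 4 libraries of one knockdown and above them in all 4 of the other. *SMARCD2* fell by 0.45 with *SMARCA4* lowered (SE 0.11, adjusted p = 0.009), and its log2 fold change with *SMARCA1* lowered was 0.26 (95% interval 0.00 to 0.52, adjusted p = 0.087). *SMARCD1* stood at 94.5 and 103 CPM in the controls, 153, 135, 124 and 111 in *SMARCA4* knockdown and 153, 154, 148 and 155 in *SMARCA1* knockdown, above the controls in all 8 knockdown libraries. *SMARCD1* rose by 0.39 (SE 0.10, adjusted p = 0.0089) and 0.63 (SE 0.10, adjusted p = 0.0008). *SMARCD3*, at 3.93 and 3.97 CPM in the controls, was called in neither (-0.06 and -0.35). *SMARCD2* held 65.1% and 63.9% of the summed CPM per kb of the 3 genes in the controls and 45.5% to 56.5% in *SMARCA4* knockdown. Without control replicate 1, the *SMARCA4* knockdown values of *SMARCD2* (-0.43, adjusted p = 0.065) and *SMARCD1* (0.37, adjusted p = 0.071) did not pass, and *SMARCD2* also did not pass without control replicate 2 (-0.39, adjusted p = 0.084). *SMARCD2* with *SMARCA1* lowered passed without replicate 2 of *SMARCA1* siRNA A (0.33, adjusted p = 0.017).

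*SMARCE1* (BAF57), the HMG-box subunit of the core, stood at 15.7 and 10.9 CPM in the controls, 5.97, 8.7, 5.65 and 6.52 in *SMARCA4* knockdown and 6.18, 6.66, 5.05 and 4.13 in *SMARCA1* knockdown. All 8 knockdown values lay below both controls, which differed from each other. *SMARCE1* fell by 0.99 (SE 0.19, adjusted p = 0.0021) and by 1.29 (SE 0.19, adjusted p = 0.00055). These counts may not cover the whole message, since 51.5% of the canonical *SMARCE1* transcript lies in exons that the annotation of the files also gives to another gene of the same strand, and how reads in shared exons were counted is not stated. Without control replicate 1, *SMARCE1* did not pass with *SMARCA4* lowered (-0.67, adjusted p = 0.063). *SMARCB1* (SNF5), the subunit lost in rhabdoid tumours, stood at 80.4 and 96.3 CPM in the controls and was called in neither knockdown (0.15 and 0.21). With *SMARCA1* lowered *SMARCB1* passed only without replicate 2 of *SMARCA1* siRNA A (0.29, adjusted p = 0.016).

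**Figure D3:**
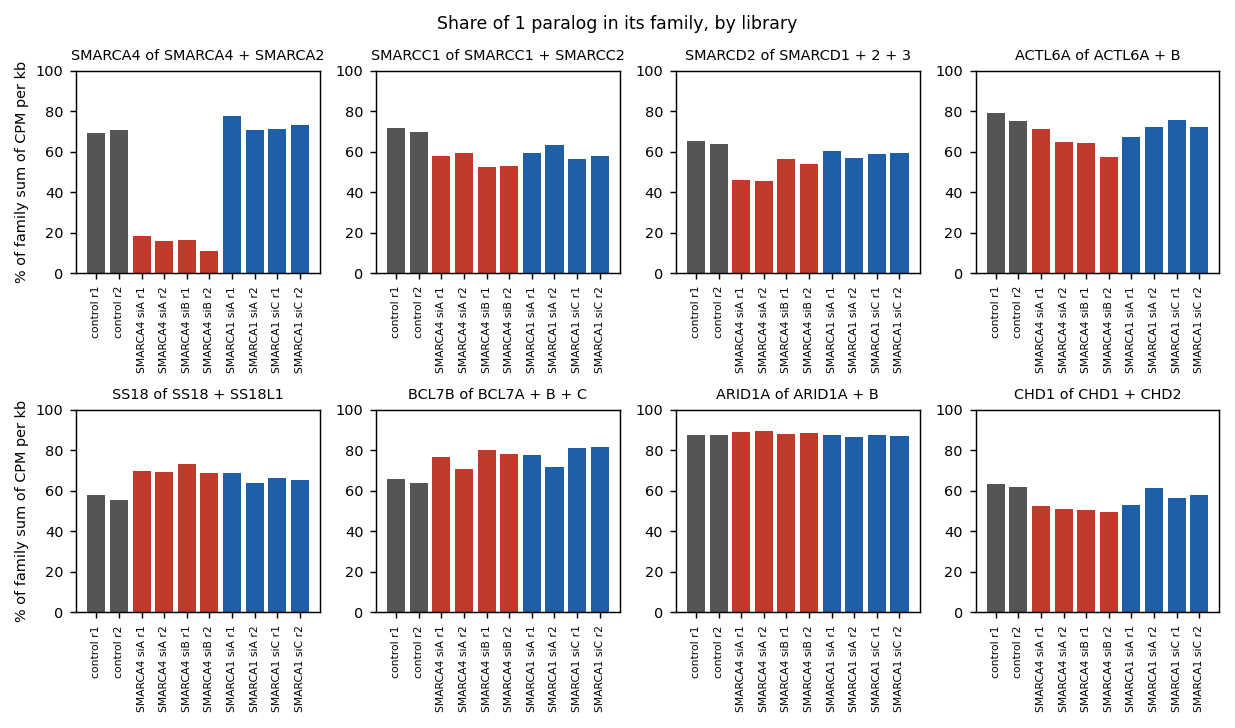
Bars give, for each library, the percent of the summed CPM per kb of a paralog family held by the gene named above the panel, with controls in grey, *SMARCA4* knockdown in red and *SMARCA1* knockdown in blue. The *SMARCA4* share drops to between 11.0% and 18.5% in *SMARCA4* knockdown and the *SMARCC1* share is lower in all 8 knockdown libraries, while the *ARID1A* share stays between 86.8% and 89.5%.

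Among the subunits specific to canonical BAF, 3 of 4 tested genes were called higher with *SMARCA4* lowered, beside 22.8% of all genes. It was 1 of 4 with *SMARCA1* lowered, beside 23.8%, and the difference between these counts was not tested. *ARID1A*, the most often mutated BAF subunit, stood at 331 and 342 CPM in the controls, 530.3, 528, 555 and 591 in *SMARCA4* knockdown and 279.7, 383, 388 and 408 in *SMARCA1* knockdown. The *SMARCA4* knockdown values lay above all others, and the *SMARCA1* knockdown values lay on both sides of the controls. *ARID1A* rose by 0.71 with *SMARCA4* lowered (SE 0.12, adjusted p = 0.0013), and its log2 fold change with *SMARCA1* lowered was 0.11 (95% interval -0.16 to 0.38, adjusted p = 0.49). Its alternative *ARID1B* stood at 133 and 139 CPM in the controls, 191, 179, 215 and 219 in *SMARCA4* knockdown and 116, 169, 162 and 176 in *SMARCA1* knockdown, the same order of groups as *ARID1A*. *ARID1B* rose by 0.56 with *SMARCA4* lowered (SE 0.14, adjusted p = 0.0086) and had a log2 fold change of 0.18 with *SMARCA1* lowered (adjusted p = 0.29). Their summed CPM per kb went from 23.7 and 24.5 in the controls to 37.1 to 41.9 in *SMARCA4* knockdown, with *ARID1A* at 87.7% and 87.6% of it in the controls and 88.1% to 89.5% in that knockdown. The lowest *SMARCA1* knockdown value of both genes was that of siRNA A replicate 1. Without this library both passed in that knockdown (0.21, adjusted p = 0.04, for *ARID1A* and 0.31, adjusted p = 0.0075, for *ARID1B*), and without control replicate 1 *ARID1B* did not pass with *SMARCA4* lowered (0.56, adjusted p = 0.063).

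The DPF genes encode BAF45 subunits that read acetylated histones. *DPF2* held at least 98.2% of their summed CPM per kb in every library. It stood at 159 and 161 CPM in the controls, 228, 224, 257 and 226 in *SMARCA4* knockdown and 247, 204, 220.3 and 232 in *SMARCA1* knockdown, with no overlap. *DPF2* rose by 0.55 (SE 0.11, adjusted p = 0.0023) and 0.50 (SE 0.11, adjusted p = 0.0038). *DPF1*, known from neurons, had 0.585 and 1.26 CPM in the controls and log2 fold changes of 0.78 and 0.87 that did not pass (adjusted p = 0.11 and 0.075). It passed with *SMARCA4* lowered without replicate 1 of *SMARCA4* siRNA A (1.03, adjusted p = 0.028) and with *SMARCA1* lowered without control replicate 2 (1.56, adjusted p = 0.042) or with the replicate number as a block (0.91, adjusted p = 0.038). With no filter on low counts it passed in both (0.81, adjusted p = 0.024, and 0.87, adjusted p = 0.012).

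In PBAF, which differs from BAF by its targeting subunits, 2 of 4 genes (50.0%) were called with *SMARCA4* lowered, beside 45.1% of all genes. There were 3 of 4 (75.0%) with *SMARCA1* lowered, beside 46.8%, and *PHF10* fell in both knockdowns. *PHF10* (BAF45A) stood at 80.9 and 69.2 CPM in the controls, 35.8, 44.3, 26.2 and 32.0 in *SMARCA4* knockdown and 40.1, 45.3, 30.6 and 31.4 in *SMARCA1* knockdown. All 8 knockdown values lay below the controls. *PHF10* fell by 1.14 (SE 0.12, adjusted p = 8.5e-05) and 1.04 (SE 0.12, adjusted p = 0.00018), to 0.455 and 0.485 of the control level. With each siRNA alone its log2 fold change was -0.91 and -1.37 for *SMARCA4* siRNA A and B and -0.81 and -1.28 for *SMARCA1* siRNA A and C, and each of the 4 passed.

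*PBRM1* (BAF180), the bromodomain scaffold of PBAF, stood at 237 and 227 CPM in the controls, 182, 188, 156 and 180.2 in *SMARCA4* knockdown and 100.3, 203, 133 and 131 in *SMARCA1* knockdown. Every knockdown value was below the controls, and the replicates of *SMARCA1* siRNA A were far apart. *PBRM1* fell by 0.71 with *SMARCA1* lowered (SE 0.21, adjusted p = 0.018), and its log2 fold change with *SMARCA4* lowered was -0.40 (95% interval -0.87 to 0.07, adjusted p = 0.15). The *PBRM1* call was lost without control replicate 1 (-0.66, adjusted p = 0.12) and without control replicate 2 (-0.73, adjusted p = 0.084). *ARID2* (BAF200), its partner, stood at 117 and 110.0 CPM in the controls, 96.6, 102, 95.4 and 94.3 in *SMARCA4* knockdown and 47.7, 111, 77.4 and 79.2 in *SMARCA1* knockdown, where the first value, siRNA A replicate 1, was the lowest of all. *ARID2* was called in neither (-0.23, adjusted p = 0.47, and -0.53, adjusted p = 0.095). With *SMARCA1* lowered it passed without replicate 1 of *SMARCA1* siRNA A (-0.29, adjusted p = 0.0076) and without replicate 2 (-0.87, adjusted p = 2e-05). It also passed with no filter on low counts (-0.52, adjusted p = 0.00021).

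For *PBRM1* and *ARID2* the call with *SMARCA4* lowered depended on the libraries in the fit. With the *SMARCA4* knockdown and control libraries alone, *PBRM1* (-0.39, adjusted p = 0.0064) and *ARID2* (-0.22, adjusted p = 0.037) both passed. *PBRM1* also passed with no filter on low counts (-0.37, adjusted p = 0.0098).

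*BRD7*, of PBAF, and *BRD9*, of ncBAF, are related bromodomain genes, and *BRD7* rose in both knockdowns. It stood at 60.2 and 64.6 CPM in the controls and between 70.4 and 86.5 in the 8 knockdown libraries. *BRD7* rose by 0.27 with *SMARCA4* lowered (SE 0.09, adjusted p = 0.032) and 0.44 with *SMARCA1* lowered (SE 0.09, adjusted p = 0.0031). *BRD9* stood at 19.1 and 21.8 CPM in the controls, 22.1 to 28.1 in *SMARCA4* knockdown and 25.9 to 27.7 in *SMARCA1* knockdown. *BRD9* rose by 0.41 with *SMARCA1* lowered (SE 0.11, adjusted p = 0.012) and had a log2 fold change of 0.27 with *SMARCA4* lowered (adjusted p = 0.064). With *SMARCA4* lowered, *BRD7* did not pass without control replicate 1 (0.26, adjusted p = 0.15), without control replicate 2 (0.35, adjusted p = 0.065) or without replicate 1 of *SMARCA4* siRNA A (0.27, adjusted p = 0.054), or with no filter on low counts (0.29, adjusted p = 0.095), and *BRD9* passed without replicate 2 of *SMARCA4* siRNA A (0.35, adjusted p = 0.035). *BRD9* with *SMARCA1* lowered did not pass without control replicate 1 (0.34, adjusted p = 0.11). Exons of *ADCY7* and RP11-21B23.1 on the other strand together cover 42.2% of the *BRD7* exons, and whether strand was used in counting is not stated.

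The subunits that sit on the motor were called in 4 of 8 cases with *SMARCA4* lowered (50.0%, 2 higher, 2 lower), beside 45.1% of all genes. It was 3 of 8 with *SMARCA1* lowered (37.5%, 2 higher, 1 lower), beside 46.8%. *ACTL6A* (BAF53A), an actin-related protein of dividing cells, stood at 62.8 and 58.1 CPM in the controls, 41.9, 42.0, 33.9 and 33.3 in *SMARCA4* knockdown and 52.8, 57.9, 51.4 and 45.6 in *SMARCA1* knockdown. The *SMARCA4* knockdown values lay below all others. *ACTL6A* fell by 0.69 with *SMARCA4* lowered (SE 0.09, adjusted p = 0.0003), and had a log2 fold change of -0.22 with *SMARCA1* lowered (adjusted p = 0.077). That value passed without replicate 2 of *SMARCA1* siRNA A (-0.23, adjusted p = 0.041). *ACTL6B*, the neuronal counterpart, at 10.6 and 12.6 CPM in the controls, was called in neither (0.21 and 0.17), and its share of the summed CPM per kb went from 20.7% and 25.1% in the controls to 29.0% to 42.4% in *SMARCA4* knockdown.

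*SS18L1* (CREST), a transactivator subunit, stood at 62.9 and 61.8 CPM in the controls, 36.5, 37.2, 34.0 and 41.6 in *SMARCA4* knockdown and 31.9, 50.3, 41.2 and 40.7 in *SMARCA1* knockdown, all below the controls. It fell by 0.74 (SE 0.16, adjusted p = 0.0036) and 0.60 (SE 0.16, adjusted p = 0.01). In *SMARCA1* knockdown it did not pass without control replicate 1 (-0.57, adjusted p = 0.084) or replicate 2 (-0.60, adjusted p = 0.066). Its paralog *SS18*, the gene fused in synovial sarcoma, stood at 104 and 91.4 CPM in the controls and was called in neither (0.10 and -0.04). *BCL7B* stood at 63.5 and 63.6 CPM in the controls, 94.1, 83.0, 111 and 98.2 in *SMARCA4* knockdown and 127, 99.8, 114 and 121 in *SMARCA1* knockdown, with no overlap with the controls. *BCL7B* rose by 0.60 (SE 0.12, adjusted p = 0.0027) and 0.86 (SE 0.12, adjusted p = 0.00043). *BCL7A*, at 54.5 and 57.3 CPM in the controls, and *BCL7C*, at 7.02 and 8.87 CPM, were called in neither (*BCL7A* -0.27 and -0.16, *BCL7C* -0.12 and 0.07). *BCL7A* passed with *SMARCA4* lowered without replicate 2 of *SMARCA4* siRNA A (-0.31, adjusted p = 0.042), with the 2 arms alone in the fit (-0.26, adjusted p = 0.048), with the replicate number as a block (-0.27, adjusted p = 0.047) and with siRNA B alone (-0.37, adjusted p = 0.033). With *SMARCA1* siRNA C alone it passed too (-0.38, adjusted p = 0.03). *ACTB*, which is both a subunit and cytoskeletal actin, rose by 0.47 (SE 0.10, adjusted p = 0.0038) and 0.40 (SE 0.10, adjusted p = 0.0084) from 1144 and 1129 CPM in the controls. The *ACTB* value with *SMARCA1* lowered did not pass without control replicate 1 (0.43, adjusted p = 0.052) or replicate 2 (0.41, adjusted p = 0.059).

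**Figure D4:**
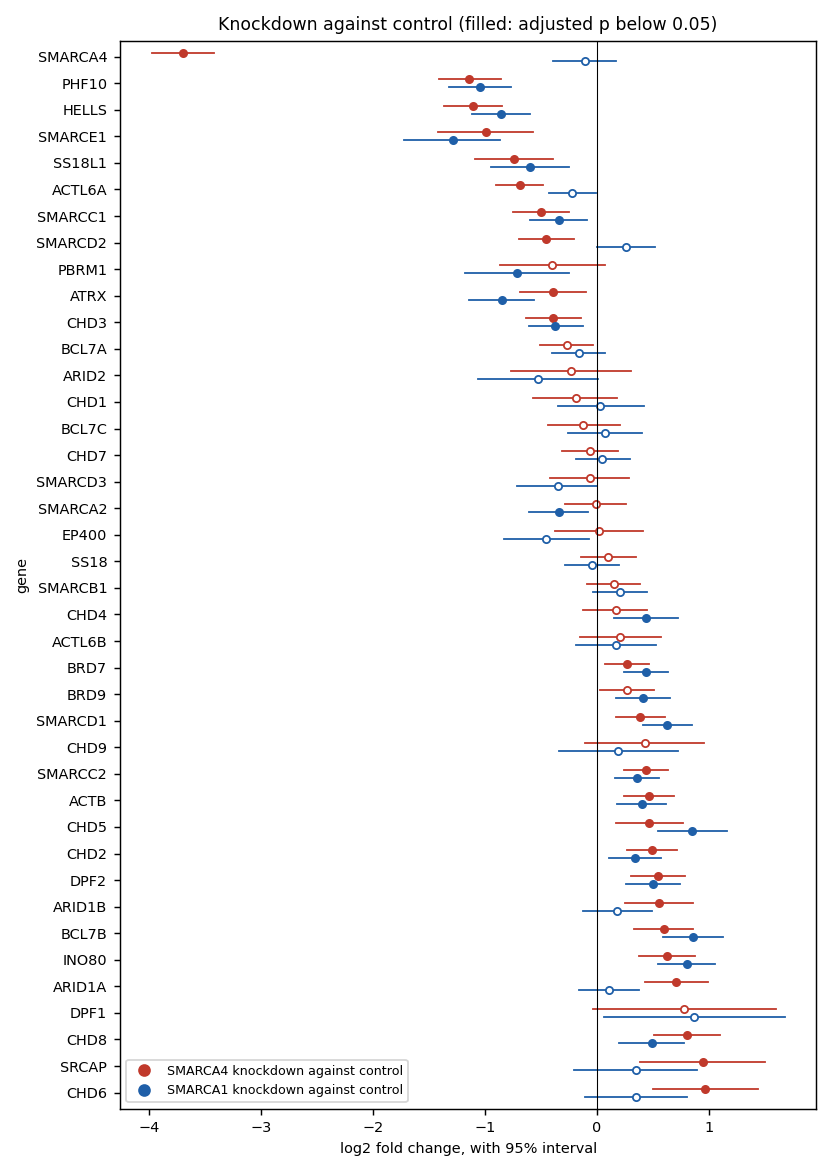
Points are log2 fold changes against control with 95% intervals for the 40 tested genes, *SMARCA4* knockdown in red and *SMARCA1* knockdown in blue, filled where the adjusted p was below 0.05. Apart from *SMARCA4* at -3.70, values lie between -1.29 and 0.97.

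The CHD family pairs a helicase motor with chromodomains. In each knockdown 5 of 9 genes were called (55.6%, beside 45.1% and 46.8% of all genes), 4 higher and 1 lower. *CHD6* and *CHD8*, of the subfamily that also holds *CHD7* and *CHD9*, had the largest rises of the family with *SMARCA4* lowered. *CHD6* stood at 208 and 207 CPM in the controls, 405, 327, 425 and 477 in *SMARCA4* knockdown and 155, 292, 302 and 321 in *SMARCA1* knockdown. *CHD8* stood at 176 and 173 CPM in the controls, 308, 254, 324 and 341 in *SMARCA4* knockdown and 179, 241, 284 and 290.3 in *SMARCA1* knockdown. Both were above the controls in 4 of 4 *SMARCA4* knockdown libraries, and in *SMARCA1* knockdown siRNA A replicate 1 was the lowest for both. With *SMARCA4* lowered, *CHD6* rose by 0.97 (SE 0.21, adjusted p = 0.0044) and *CHD8* by 0.81 (SE 0.13, adjusted p = 0.00088). With *SMARCA1* lowered, *CHD8* rose by 0.49 (SE 0.13, adjusted p = 0.012) and *CHD6* had a log2 fold change of 0.35 (adjusted p = 0.19). Without siRNA A replicate 1, *CHD6* passed at 0.54 (adjusted p = 0.0023), and it passed with no filter on low counts (0.35, adjusted p = 0.016). *CHD8* with *SMARCA1* lowered did not pass without control replicate 1 (0.53, adjusted p = 0.063) or replicate 2 (0.50, adjusted p = 0.073).

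*CHD7*, the gene of CHARGE syndrome, and *CHD9* were called in neither knockdown. *CHD7* stood at 51.7 and 55.4 CPM in the controls (log2 fold changes -0.06 and 0.05). *CHD9* stood at 60.1 and 52.4 CPM (0.43, adjusted p = 0.18, and 0.19, adjusted p = 0.53), and passed with *SMARCA1* lowered without replicate 1 of *SMARCA1* siRNA A (0.42, adjusted p = 0.0068). With *SMARCA4* lowered *CHD9* passed with the 2 arms alone in the fit (0.43, adjusted p = 0.009) and with no filter on low counts (0.45, adjusted p = 0.0043). Among *CHD1* and *CHD2*, which bind transcribed chromatin, *CHD2* rose by 0.49 (SE 0.10, adjusted p = 0.0033) and 0.34 (SE 0.10, adjusted p = 0.021) from 136 and 144 CPM. *CHD1*, at 147 and 145 CPM, was called in neither (-0.19 and 0.03). The *CHD2* value with *SMARCA1* lowered did not pass without control replicate 1 (0.32, adjusted p = 0.13), control replicate 2 (0.40, adjusted p = 0.065) or replicate 1 of *SMARCA1* siRNA C (0.32, adjusted p = 0.064).

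*CHD3*, *CHD4* and *CHD5* are the alternative motors of NuRD, a complex that joins remodeling to histone deacetylation. *CHD5* stood at 8.4 and 9.25 CPM in the controls, 11.1, 11.7, 14.8 and 11.5 in *SMARCA4* knockdown and 15.7, 14.7, 17.5 and 16.0 in *SMARCA1* knockdown. All 8 knockdown values lay above the controls, and the highest of *SMARCA4* knockdown just passed the lowest of *SMARCA1* knockdown. *CHD5* rose by 0.47 (SE 0.14, adjusted p = 0.017) and 0.85 (SE 0.14, adjusted p = 0.00083). *CHD3* stood at 380.3 and 407 CPM in the controls, 247 to 352 in *SMARCA4* knockdown and 253 to 374 in *SMARCA1* knockdown, and fell by 0.39 (SE 0.11, adjusted p = 0.017) and 0.37 (SE 0.11, adjusted p = 0.021). *CHD4* stood at 18.5 and 19.2 CPM in the controls and rose by 0.44 with *SMARCA1* lowered (SE 0.13, adjusted p = 0.02), with a log2 fold change of 0.17 with *SMARCA4* lowered (adjusted p = 0.32). The level of *CHD4* cannot be set beside that of *CHD3*, since 90.1% of the canonical *CHD4* transcript lies in exons shared with another gene of the same strand and the treatment of reads there is not stated.

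Several calls of these 3 genes rested on single libraries. *CHD3* with *SMARCA4* lowered did not pass without control replicate 1 (-0.39, adjusted p = 0.098), control replicate 2 (-0.31, adjusted p = 0.18), *SMARCA4* siRNA A replicate 1 (-0.30, adjusted p = 0.08) or *SMARCA4* siRNA B replicate 1 (-0.27, adjusted p = 0.093). With *SMARCA1* lowered, neither *CHD3* nor *CHD4* passed without control replicate 1 (-0.39, adjusted p = 0.1, and 0.44, adjusted p = 0.11), control replicate 2 (-0.30, adjusted p = 0.18, and 0.48, adjusted p = 0.084), *SMARCA1* siRNA C replicate 1 (adjusted p = 0.052 for both) or replicate 2 (-0.34, adjusted p = 0.072, and 0.43, adjusted p = 0.056). *CHD5* did not pass with *SMARCA4* lowered without control replicate 1 (0.44, adjusted p = 0.11) or replicate 2 (0.57, adjusted p = 0.05).

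The INO80-type motors exchange or remove the histone variant H2A.Z. Of these, 2 of 3 (66.7%) were called higher with *SMARCA4* lowered, beside 22.8% of all genes. It was 1 of 3 (33.3%) with *SMARCA1* lowered, beside 23.8%. *INO80* stood at 61.4 and 61.5 CPM in the controls, 97.1, 76.8, 110.2 and 98.2 in *SMARCA4* knockdown and 89.7, 92.8, 128 and 125 in *SMARCA1* knockdown. All 8 knockdown values lay above the controls. *INO80* rose by 0.63 (SE 0.11, adjusted p = 0.0014) and 0.81 (SE 0.11, adjusted p = 0.00042). *SRCAP* stood at 7.1 and 7.46 CPM in the controls, 14.5, 12.0, 15.2 and 14.7 in *SMARCA4* knockdown and 4.66, 10.2, 11.5 and 11.8 in *SMARCA1* knockdown, where siRNA A replicate 1 was below the controls and the other 3 above. *SRCAP* rose by 0.95 with *SMARCA4* lowered (SE 0.25, adjusted p = 0.011), and had a log2 fold change of 0.35 with *SMARCA1* lowered (adjusted p = 0.27), or 0.58 without siRNA A replicate 1 (adjusted p = 0.0035). Of the canonical *SRCAP* transcript, 86.5% lies in exons shared with other genes of the same strand, and whether reads there were counted is not stated. *SRCAP* with *SMARCA4* lowered did not pass without control replicate 1 (0.95, adjusted p = 0.078) or replicate 2 (1.01, adjusted p = 0.064).

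*EP400* stood at 107 and 106 CPM in the controls, 102, 119, 95.1 and 116 in *SMARCA4* knockdown and 57.3, 94.3, 81.4 and 78.7 in *SMARCA1* knockdown. It overlapped the controls in the first and lay below them in the second. *EP400* was called in neither (0.02, adjusted p = 0.94, and -0.45, adjusted p = 0.054), and with *SMARCA1* lowered it passed without replicate 1 of *SMARCA1* siRNA A (-0.29, adjusted p = 0.045) or without replicate 2 (-0.62, adjusted p = 0.00083). The *EP400* value with *SMARCA1* lowered also passed under DESeq2 (-0.45, adjusted p = 0.038), with the replicate number as a block (-0.46, adjusted p = 0.026), with library totals alone as the scaling (-0.48, adjusted p = 0.044), and under both other filters on low counts (-0.45, adjusted p = 0.047 at 1 CPM and 0.0023 with no filter). The call of *EP400* thus changed with the method.

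*ATRX* and *HELLS*, SNF2-type motors that act in heterochromatin, were called lower in both knockdowns. *HELLS* (LSH), which is needed for DNA methylation of repeats, stood at 51.0 and 49.2 CPM in the controls, 23.0, 23.5, 22.7 and 23.9 in *SMARCA4* knockdown and 23.8, 31.7, 28.4 and 26.2 in *SMARCA1* knockdown. All 8 knockdown values were below the controls. *HELLS* fell by 1.11 (SE 0.12, adjusted p = 7.1e-05) and 0.86 (SE 0.12, adjusted p = 0.00035). *ATRX*, which loads histone H3.3 at telomeres and repeats, stood at 249 and 233 CPM in the controls, 197, 227, 138 and 180.2 in *SMARCA4* knockdown and 122, 155, 128 and 130.5 in *SMARCA1* knockdown. The *SMARCA1* knockdown values were the lower of the 2 sets but reached into the range of the other. *ATRX* fell by 0.39 (SE 0.13, adjusted p = 0.035) and 0.85 (SE 0.13, adjusted p = 0.00069). The *SMARCA4* siRNAs taken singly gave *ATRX* -0.19 for A (adjusted p = 0.39) and -0.60 for B (adjusted p = 0.011). The *ATRX* value with *SMARCA4* lowered did not pass without control replicate 1 (-0.30, adjusted p = 0.26), control replicate 2 (-0.41, adjusted p = 0.13), *SMARCA4* siRNA A replicate 1 (-0.30, adjusted p = 0.14) or *SMARCA4* siRNA B replicate 1 (-0.26, adjusted p = 0.15).

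The direct comparison sets the knockdowns against each other and asks which genes differed between them. The controls are not compared in it, but all 10 libraries were in the fit. Of the 30 interferon response genes, 9 were called in it (30.0%), 3 higher and 6 lower in *SMARCA4* knockdown. Loss of the target and other effects of its siRNAs cannot be told apart. Of the 40 genes, 13 were called (32.5%), 8 higher and 5 lower in *SMARCA4* than in *SMARCA1* knockdown, where 35.4% of all genes were called, 16.3% higher and 19.1% lower. Besides *SMARCA4* itself (-3.59, SE 0.12, adjusted p = 4.1e-07), *SMARCD2* was lower in *SMARCA4* knockdown by a log2 ratio of -0.71 (SE 0.09, adjusted p = 0.00048) and *ACTL6A* by -0.46 (SE 0.08, adjusted p = 0.0017). *ARID1A* was higher by 0.60 (SE 0.10, adjusted p = 0.0015). These 4 calls held under every alternative run. The values of *SMARCD2* and *ARID1A* in the 4 libraries of one target did not overlap those of the other, nor did those of *ACTL6A*.

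The other 9 calls of the direct comparison did not hold under every alternative run. For the fits with a library left out, the shares of all genes called are not set beside the counts below. *CHD6* (0.62, SE 0.17, adjusted p = 0.016), *SRCAP* (0.60, SE 0.19, adjusted p = 0.037), *EP400* (0.47, SE 0.14, adjusted p = 0.028), *ATRX* (0.46, SE 0.11, adjusted p = 0.01), *ARID1B* (0.37), *SMARCA2* (0.33) and *CHD8* (0.31) were higher in *SMARCA4* knockdown, and *CHD5* (-0.38) and *SMARCD1* (-0.23) were lower. *ATRX* passed with each library left out and missed the threshold against *SMARCA1* knockdown with *SMARCA4* siRNA B alone (0.25, adjusted p = 0.19). Without replicate 1 of *SMARCA1* siRNA C, *CHD6* (0.61, adjusted p = 0.054), *SRCAP* (0.59, adjusted p = 0.093), *EP400* (0.49, adjusted p = 0.07), *ARID1B* (0.35, adjusted p = 0.087), *SMARCA2* (0.35, adjusted p = 0.069), *CHD8* (0.31, adjusted p = 0.11), *CHD5* (-0.35, adjusted p = 0.084) and *SMARCD1* (-0.25, adjusted p = 0.11) did not pass. With only the libraries of the knockdowns in the fit, *SMARCD1*, *CHD8* and *SRCAP* did not pass (adjusted p = 0.057, 0.056 and 0.054), and *SMARCD1* also missed the threshold with no filter on low counts (adjusted p = 0.13), library totals alone (0.051) or the replicate block (0.05). Without replicate 2 of *SMARCA1* siRNA C, 7 genes were called. Without replicate 1 or 2 of *SMARCA4* siRNA A, or replicate 1 of *SMARCA4* siRNA B, 10 were called each time, and without replicate 2 of *SMARCA4* siRNA B 6 were. Without replicate 2 of *SMARCA1* siRNA A, 20 genes were called, and without its replicate 1, 17. *PHF10* (-0.09, 95% interval -0.33 to 0.14), *DPF2* (0.05, -0.14 to 0.24), *SMARCC2* (0.08, -0.08 to 0.24) and *INO80* (-0.18, -0.37 to 0.02) were not shown to differ between the targets, within the intervals given, though *INO80* passed against *SMARCA1* siRNA C alone (-0.41, adjusted p = 0.021).

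**Figure D5:**
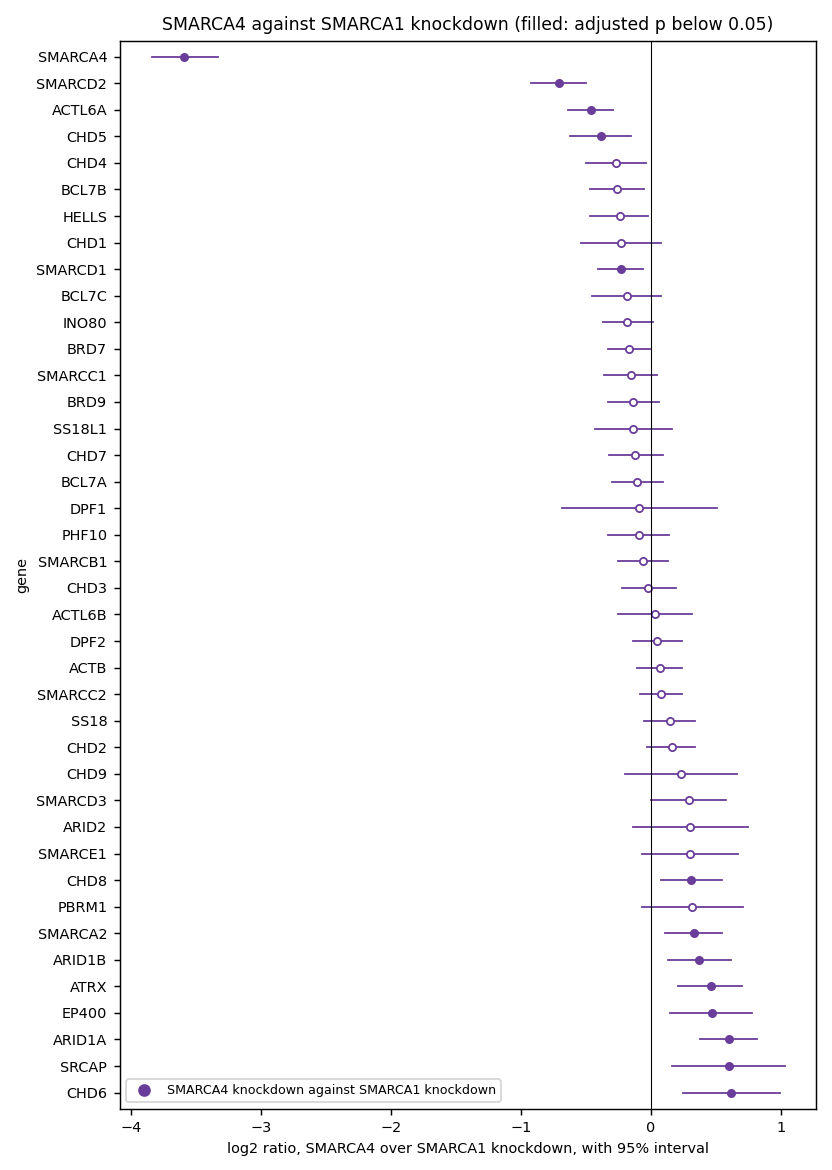
Points are log2 ratios of *SMARCA4* over *SMARCA1* knockdown with 95% intervals for the 40 tested genes, filled where the adjusted p was below 0.05. *SMARCA4* and *SMARCD2* are lowest and *CHD6*, *SRCAP* and *ARID1A* highest.

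Between the 2 siRNAs of 1 target few members were called. *SMARCA4* siRNA B left less *SMARCA4* than siRNA A, a log2 difference of -0.60 (SE 0.15, adjusted p = 0.048). *SMARCD3* stood at 2.86 and 3.05 CPM with siRNA A and 5.03 and 4.63 with siRNA B, a difference of 0.71 (SE 0.18, adjusted p = 0.049), the only other call among 40 genes, where 6.2% of all genes were called. With any 1 of these 4 libraries left out, at most 1 of the 2 genes passed. Between *SMARCA1* siRNA C and siRNA A, edgeR called 0 of the 40 genes (0.0118% of all genes), and DESeq2 called 2 of the 40. In edgeR 9 of the 40 had an unadjusted p below 0.05, beside 2898 of all 16899 genes. The replicates of *SMARCA1* siRNA A differed more than any other pair (chi-square per gene 60.6), and the number called changed with the library left out. The 0 calls thus do not show that these siRNAs acted alike.

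Other genes of the same complexes, 57 of 58 of them tested, were called in 26 cases with *SMARCA4* lowered, 6 higher and 20 lower, and in 27 with *SMARCA1* lowered, 11 higher and 16 lower. These shares (45.6% and 47.4%) were near the 45.1% and 46.8% of all genes. Of the 57 genes, 35.1% and 28.1% were called lower beside 22.3% and 23% of all genes, with no test of the group. Called changes of at least 1 on the log2 scale were those of *BCL11A* (-1.69, SE 0.22, adjusted p = 0.00025, and -2.12, SE 0.23, adjusted p = 0.00012), a zinc-finger BAF subunit, and of *ZRANB3* (-1.09, adjusted p = 0.00075, and -1.38, adjusted p = 0.00026), a fork-remodeling motor. *RUVBL1*, the AAA+ ATPase shared by the *INO80*, *SRCAP* and *EP400* complexes, fell just short of that size with *SMARCA4* lowered, to 0.501 of the control level (SE 0.09 on the log2 scale, adjusted p = 3.4e-05). In the direct comparison *RUVBL1* was lower in *SMARCA4* knockdown (-0.82, adjusted p = 0.00013). Of 12 NuRD subunits besides the CHD motors, 6 were called with *SMARCA4* lowered (50.0%, beside 45.1% of all genes), each of them lower. It was 6 with *SMARCA1* lowered as well (50.0%, beside 46.8%), 3 higher and 3 lower. In the direct comparison 9 were called (75.0%, beside 35.4% of all genes), 8 of them lower in *SMARCA4* knockdown.

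By level per kb of exon in the controls, *ACTB* was highest (258 CPM per kb), followed by *SMARCC1* (41.0), *SMARCD2* (38.1), *CHD3* (35.7), *PBRM1* (24.0) and *ARID1A* (21.1). *SMARCA4* stood at 16.5 CPM per kb, level with *ACTL6A* (16.5), and *SMARCA2* at 7.05. Among tested genes the lowest were *SMARCD3* (0.803), *SMARCE1* (0.721), *SRCAP* (0.534) and *DPF1* (0.192). Exon length in the files is the union over all isoforms of a gene, from 1.02 times the canonical transcript for *CHD5* to 4.45 times for *ARID1B*, so this order depends on the length used.

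Per kb of the canonical GENCODE transcript, a length chosen after these values were seen, the order after *ACTB* (627 CPM per kb) was *SMARCD2* (56.6), *CHD3* (53.3), *SMARCC1* (49.2), *SMARCA4* (45.7), *DPF2* (43.0) and *ARID1A* (39.2). *PBRM1* moved from rank 5 to 13 and *SMARCA2* from 25 to 15. *SRCAP* and *DPF1* were the lowest tested genes by either length. By this length *SMARCA4* held 65.9% and 67.4% of the motor sum in the controls and 9.61% to 16.3% in its knockdown. *ARID1A* held 74.9% and 74.7% of the ARID1 sum in the controls and 75.6% to 78.0% in *SMARCA4* knockdown. *SMARCC1* held 62.7% and 60.2% in the controls and 42.2% to 49.1% in *SMARCA4* knockdown, less than *SMARCC2* there. The levels of *CHD4*, *SRCAP* and *SMARCE1* may be understated by either length if reads in shared exons were left out of the counts, which is not stated.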

How the data were processed

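RNA-seq counts of 10 VCaP libraries were analysed. The authors made strand-specific libraries from polyadenylated RNA, aligned paired-end reads to GRCh38 with HISAT2 2.1.0 and counted them per gene with featureCounts 1.5.2 on a GENCODE annotation whose release is not given in the sources used here. The deposited values are raw counts, whole numbers without normalization, and 3 counts in a library, the most that a count of 0 allows, equal 0.0865 to 0.126 CPM (counting error only).

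Groups followed the sample labels. Counts were filtered with filterByExpr (minimum count 10, minimum total count 15), scaled by TMM and fitted with edgeR 4.0.16 (glmQLFit and glmQLFTest, R 4.3.3) to 5 groups of 2 libraries. The contrasts were the mean of the siRNA groups of a target less the control, the difference between those means for the 2 targets, and siRNA against siRNA within a target. Benjamini-Hochberg adjustment ran over 16899 genes, with calls below 0.05. Standard errors are the absolute log2 fold change over the square root of F. CPM per kb divides TMM-scaled CPM by the exon length in the files (the canonical transcript length was added after the data were seen). Replicates were not copies of one library (chi-square per gene 3.8 to 60.6 within pairs).

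Members and gene lists were chosen with earlier results of these data known. Values in every library are given for *SMARCA4*, *SMARCA2* and *SMARCA1* and for the 8 members with the largest called change in each of the 3 comparisons between targets and control; those of *SMARCC1*, *SMARCC2*, *SMARCD1*, *ARID1B*, *DPF2* and *ARID2* were added after their values were seen. Other paralogs are given by level and fold change, and other genes of the pathway where called at an absolute log2 fold change of at least 1 (*RUVBL1* was added after its value was seen). The siRNA sequences listed by the study were matched to GENCODE transcripts of GRCh38 without gaps. Alternatives were DESeq2 1.42.0, other scalings and filters, 2 arms alone, a replicate block, single siRNAs and each library left out. The fit was tested on simulated data.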

Additional observations from a re-analysis of the deposited data

Results flagged for a closer look

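Genes were looked for whose effect differed between the siRNAs of 1 target in a test of that difference, and 2 of the remodeler genes did, both between the *SMARCA4* siRNAs. *SMARCA4* itself was lower with siRNA B than with siRNA A by a log2 difference of -0.60 (SE 0.15, adjusted p = 0.048, edgeR's quasi-likelihood test), at 18.6 and 13.3 against 25.2 and 23.2 CPM. *SMARCD3*, a low-level BAF60 subunit, was higher with siRNA B by 0.71 (SE 0.18, adjusted p = 0.049), at 5.03 and 4.63 against 2.86 and 3.05 CPM, while the controls stood at 3.93 and 3.97. Both values lie close to the threshold, and DESeq2 called 1 of the 40 genes in this comparison. No group had the 4 or more libraries needed to look for a single outlying library.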

How the results depend on the processing

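Of 2009 values of single genes under an alternative, 1826 kept their direction and their side of the threshold, 125 lost and 58 gained a call, and 0 called values turned. In 54 values of 25 results, with a main log2 fold change of at most 0.29 in size, the sign turned while the gene was called in neither fit. Leaving out 1 library at a time, the genes called with *SMARCA4* lowered ranged from 14 to 26 (9 to 15 higher, 5 to 11 lower), with *SMARCA1* lowered from 10 to 28 (6 to 17 higher, 4 to 12 lower), and between the knockdowns from 5 to 20 (2 to 13 higher, 3 to 9 lower). Between the *SMARCA4* siRNAs the range was 0 to 1 and between the *SMARCA1* siRNAs 0 to 10. The lowest counts against control came without control replicate 1, where 1 control library remained and was assumed to vary like the other groups, and the highest between the knockdowns without replicate 2 of *SMARCA1* siRNA A. With single siRNAs, the knockdowns differed in 8 genes with *SMARCA4* siRNA A alone (3 higher) and in 7 with *SMARCA1* siRNA C alone (2 higher), and 5 were higher with *SMARCA4* siRNA B alone. DESeq2 called 1 gene between the *SMARCA4* siRNAs and 2 between the *SMARCA1* siRNAs, a fit of the 2 arms alone 0 between the *SMARCA4* siRNAs, and no filter on low counts 6 between the *SMARCA1* siRNAs. *EP400* with *SMARCA1* lowered, missed in the fit reported, passed under DESeq2, the block, library totals alone and both other filters. The causes were not tested. The ranges with 1 library left out have no share of all genes beside them, so they cannot be read as particular to the remodeler genes.

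Replicate numbers are shared by the groups, but deviations of same-numbered libraries correlated between -0.103 and 0.362 and not every pair was over 0.1, so the libraries share only a number. With the replicate number as a block, 25, 23 and 14 genes were called in the 3 comparisons in place of 24, 21 and 13, and 1 in place of 2 between the *SMARCA4* siRNAs. The canonical transcript length, added after the data were seen, moved 39 of 41 control levels per kb and 19 of 24 paralog shares by more than the SD of the 2 controls. Depth limits *DPF3* (0 to 4 counts) and *DPF1* (14 to 74 counts).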
